A study of Mus musculus with 6 samples.

Results

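The genes described here are 10 nuclear genes for the folding and proteolysis machinery of mitochondria: the matrix chaperonin pair Hspd1 and Hspe1, the matrix HSP90 Trap1, the matrix proteases Lonp1, Clpp and Clpx, and the inner membrane proteases Yme1l1, Afg3l2, Spg7 and Oma1. They were chosen by name as a functional group, with earlier results of these data known. They were looked up by Ensembl gene ID, with their position checked, among 12573 genes that had a level in the deposited tables. Of the 10 genes, 9 had a level, and all 9 were at 5 FPKM or more in every library and were tested. The exception was Spg7 (ENSMUSG00000000738, chr8:123062942-123097760, plus strand), which encodes paraplegin, the partner of AFG3L2 in 1 form of the m-AAA protease. No event of Spg7 was listed in any library, which says nothing of its expression, and it has no value in what follows.

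RNA was sequenced from DN3 thymocytes of mice aged 5 weeks, in 3 libraries labelled WT and 3 labelled Hspa9 cKO, with no treatment in either group. DN3 thymocytes are T cell precursors sorted as negative for lineage markers, CD4, CD8 and CD44 and positive for CD25. Hspa9 encodes GRP75 (mortalin), which is the matrix HSP70 of mitochondria, and the series asks what it does in early thymocyte development. The sources used here do not name the Cre driver, strain or sex, and no label says that the libraries are separate animals, so the p-values reflect only how far these libraries scatter, which could be technical scatter. A gene's level is the summed FPKM (fragment counts corrected for transcript length and library size) of its transcript start events. A gene was called when the adjusted p of limma's moderated test on log2(FPKM + 1), over the 9440 genes that reached 1 FPKM in 3 or more libraries, was under 0.05. In bulk RNA, fewer cells of a type and less RNA per cell cannot be told apart.

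Most mitochondrial proteins are made in the cytosol, enter as unfolded chains and are pulled into the matrix by HSPA9. Some of them then pass to the chaperonin, a chamber of HSP60 subunits (from Hspd1) closed by a lid of HSP10 (from Hspe1), where they fold out of contact with other proteins. Chains that fail are degraded by ATP-driven proteases, LONP1 and CLPXP in the matrix and the AAA proteases in the inner membrane. In mammals and worms, a load of unfolded matrix protein is known to induce chaperonin and protease genes, a programme called the mitochondrial unfolded protein response. Thymocytes draw on mitochondrial metabolism as they proliferate around the DN3 stage.

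Hspd1 and Hspe1 lie head to head on chromosome 1 and are transcribed away from a shared promoter, which is shown because both genes fell. The gap between their principal first exons is 107 bases (mm10 chr1:55088025-55088131). It holds a run of alternating heat shock units, the site that HSF1 recognises, within chr1:55088053-55088082, the stretch printed below with flanking bases. The sequences below are from RefSeq (GRCm38.p6), each 5′ to 3′ on the strand of the named gene, with 2 copies of TTCNNGAA spaced by NN (a run of 4 heat shock units) in capitals. They are the same bases read on opposite strands.

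Hspd1: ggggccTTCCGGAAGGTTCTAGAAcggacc
Hspe1: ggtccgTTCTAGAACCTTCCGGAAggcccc

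Searched on both strands, this run of 4 units was present in 5 of 32851 RefSeq promoter windows of 300 bases (0.02%), and the windows of Hspd1 and Hspe1 were among these 5. Promoter windows were matched for 9 of the 10 genes (10 windows), and Afg3l2 was not searched. A shorter run, TTCNNGAA followed by NN and TTC, lay in 0.6% of all windows and among the 9 genes again in Hspd1 and Hspe1 alone. A single pair of units, TTCNNGAA, which both longer runs contain, lay in 8.52% of all windows. Among these genes it also lay in the window of Clpp (printed with flanking bases, chr17:56990287-56990313, plus strand).

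Clpp: ggtgttgtagTTCCGGAAgccaagccg

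The cyclic AMP response element TGACGTCA lay in 1.79% of all windows. Among these genes it lay only in the window of Trap1 (printed with flanking bases, chr16:4077840-4077867, minus strand).

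Trap1: tcgcgcgccaTGACGTCActgagccgcc

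The NRF1 motif, GCGC and TGCGC spaced by N, present in 4.6% of all windows, was found in Hspd1, Oma1 and Spg7. The ETS motif CCGGAAG, present in 8.86%, was found in Hspd1, Hspe1, Clpp and Yme1l1, and overlaps the heat shock units in the first 3 of these. The box CCAAT, present in 37.41%, was found in Hspd1, Clpx and Yme1l1. The ATF4 composite element TGATGNAA, present in 3.97%, was in none of these windows. A match describes letters in a window and is not evidence of binding.

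Across the 9 measured genes, the chaperonin pair and Lonp1 were called lower in Hspa9 cKO DN3 thymocytes and none of the 9 was called higher. The 3 genes called lower stand against 5.44% of all tested genes called lower, 7.9% called higher and 13.3% called in either direction. At an unadjusted p under 0.05 in limma, 5 of the 9 were lower and 1 was higher, beside 12.2% and 18.5% of all tested genes. The library values of the 2 groups did not overlap for 7 genes, 5 of them lower and 2 higher in Hspa9 cKO; among all tested genes the groups did not overlap for 38.7% (15.7% lower, 22.9% higher). The median log2 difference of the 9 genes was -0.26, beside 0.06 over all tested genes.

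**Figure D1:**
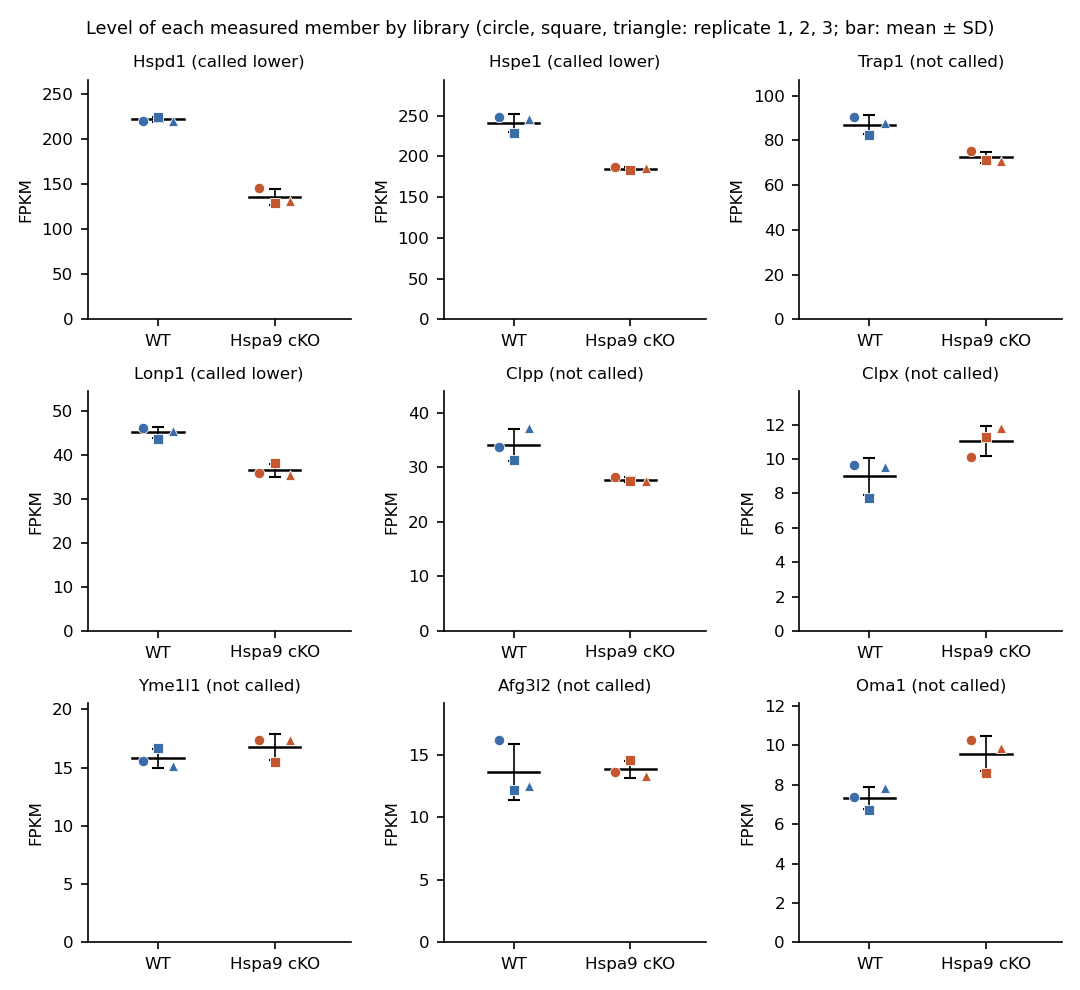
FPKM of each of the 9 measured genes (vertical axes from 0) in the 3 WT and 3 Hspa9 cKO libraries, with the mean and SD of each group. Hspd1, Hspe1, Trap1, Lonp1 and Clpp are lower in all 3 Hspa9 cKO libraries, Clpx and Oma1 are higher in all 3, and the groups overlap for Yme1l1 and Afg3l2.

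Hspd1 (ENSMUSG00000025980, chr1:55077835-55088243, minus strand) stood, in the order of replicates 1 to 3, at 220.6, 225.2 and 220.3 FPKM in WT, compared with 145.9, 129.0 and 131.7 FPKM in Hspa9 cKO. The WT libraries lay within a few FPKM of each other, and every Hspa9 cKO library was far below them. The level fell by 39.0%, from 222.1 ± 2.73 to 135.5 ± 9.08 FPKM (SD, n = 3), a log2 change of -0.71 (standard error, SE, 0.07; limma, adjusted p = 0.00433). Hspd1 was called under all 17 alternative settings, with log2 changes from -0.78 to -0.68. Among 2542 other genes with a mean of at least 20 FPKM, those most like Hspd1 over the 6 libraries by Pearson correlation of log2(FPKM + 1) were Pgk1, a glycolytic kinase (0.998), Ncbp1, a subunit of the nuclear cap-binding complex (0.996), and Uba2, a subunit of the SUMO-activating enzyme (0.996). The same measure was 0.969 for Hspe1, 0.946 for Trap1, 0.935 for Lonp1 and 0.887 for Clpp. These values mostly describe the step between the 2 groups of libraries.

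Hspe1 (ENSMUSG00000073676, chr1:55088132-55091307, plus strand) was at 248.9, 229.0 and 245.6 FPKM in WT against 187.0, 183.0 and 185.3 FPKM in Hspa9 cKO. The Hspa9 cKO libraries were nearly equal, and the lowest WT library was well above them. The level of this co-chaperonin fell by 23.3%, from 241.2 ± 10.7 to 185.1 ± 1.97 FPKM (SD, n = 3), with a log2 change of -0.38 and a standard error of 0.06 (limma, adjusted p = 0.0154). The call was lost without WT replicate 1 (limma, adjusted p = 0.0584) and without Hspa9 cKO replicate 1, 2 or 3 (0.0573, 0.0640 and 0.0648). Short transcripts as a class lay lower in Hspa9 cKO: the median log2 difference was -0.09 over 686 tested genes of at most 1000 nucleotides, the class of Hspe1 and Clpp, 0.04 over 4263 genes of up to 3000 nucleotides and 0.09 over 4491 longer genes. Hspe1 was still called with the trend over length removed (log2 change -0.30, limma, adjusted p = 0.0205). With the replicate number as a block in the fit, it was not called (limma, adjusted p = 0.0788, or 0.0832 with the length trend also removed).

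The ratio of Hspd1 to Hspe1 within a library was 0.886, 0.984 and 0.897 in WT and 0.780, 0.705 and 0.711 in Hspa9 cKO. Every Hspa9 cKO library had a lower ratio than every WT library, and the mean went from 0.922 ± 0.0533 to 0.732 ± 0.0420 (SD, n = 3). An exact two-sided permutation p was 0.1, the floor for 3 against 3 libraries, and 0.1 after adjustment over the 4 ratios computed. The annotated exons of the 2 genes overlap by 112 bases on opposite strands (chr1:55088132-55088243), where reads cannot be told apart unless counting used the strand, which is not stated. The annotation names 5 pseudogenes of Hspd1 and 6 of Hspe1, none of which had a level, so reads shared with them could have been counted to the parent genes.

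Trap1 (ENSMUSG00000005981, chr16:4039971-4077827, minus strand), the HSP90 paralogue of the matrix, was at 90.7, 82.4 and 87.9 FPKM in WT against 75.3, 71.4 and 70.7 FPKM in Hspa9 cKO. All 3 Hspa9 cKO libraries lay below the lowest WT library. The means were 87.0 ± 4.21 and 72.5 ± 2.49 FPKM (SD, n = 3), a log2 difference of -0.26 with a standard error of 0.07, which did not pass the threshold (limma, adjusted p = 0.0571; exact permutation p = 0.1). Trap1 was called after rescaling by trimmed means of log ratios (limma, adjusted p = 0.0322), by the median of ratios (0.0368), after removal of the length trend (0.0297) and with end events taken before starts (0.0489). Its adjusted p thus lay on either side of the threshold under these settings.

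Lonp1 (ENSMUSG00000041168, chr17:56614297-56626887, minus strand) encodes the matrix protease that degrades oxidised and misfolded proteins. It was at 46.2, 43.8 and 45.6 FPKM in WT against 35.9, 38.2 and 35.5 FPKM in Hspa9 cKO. The groups did not overlap, and the spread within each was under the gap between them. The level fell by 19.1%, from 45.2 ± 1.27 to 36.5 ± 1.45 FPKM (SD, n = 3), with a log2 change of -0.30 and a standard error of 0.07 (limma, adjusted p = 0.0377). This call was lost without any single library, with adjusted p from 0.0655 without WT replicate 2 to 0.121 without Hspa9 cKO replicate 3. It was also lost in limma without trended and robust variances (adjusted p = 0.0587).

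CLPXP joins a proteolytic barrel, CLPP, to the unfoldase ring CLPX that feeds it. Clpp (ENSMUSG00000002660, chr17:56990305-56996188, plus strand) was at 33.7, 31.3 and 37.2 FPKM in WT against 28.2, 27.4 and 27.5 FPKM in Hspa9 cKO. The Hspa9 cKO libraries were close together and below all WT libraries, with means of 34.1 ± 2.95 and 27.7 ± 0.442 FPKM (SD, n = 3). The log2 difference of -0.29, with a standard error of 0.08, was not called (limma, adjusted p = 0.0751), although it was after rescaling by trimmed means of log ratios (0.0452).

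Clpx (ENSMUSG00000015357, chr9:65294260-65330658, plus strand) had higher values in Hspa9 cKO. It was at 9.66, 7.75 and 9.54 FPKM in WT against 10.1, 11.3 and 11.8 FPKM in Hspa9 cKO, so that the groups did not overlap. The log2 difference was 0.28 with a standard error of 0.12 and was not called (limma, adjusted p = 0.166). The ratio of Clpx to Clpp was 0.286, 0.247 and 0.256 in WT and 0.358, 0.414 and 0.430 in Hspa9 cKO. The Clpx transcript level was thus higher relative to that of Clpp in all 3 Hspa9 cKO libraries, at 0.401 ± 0.0378 against 0.263 ± 0.0205 (SD, n = 3; exact permutation p = 0.1, adjusted 0.1). The proteins were not measured.

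None of the 3 measured genes for inner membrane proteases was called. Yme1l1 (ENSMUSG00000026775, chr2:23156369-23199260, plus strand), the i-AAA protease that faces the intermembrane space, was at 15.6, 16.7 and 15.1 FPKM in WT against 17.4, 15.5 and 17.4 FPKM in Hspa9 cKO. Afg3l2 (ENSMUSG00000024527, chr18:67404764-67449172, minus strand), the core subunit of the m-AAA protease that faces the matrix, was at 16.2, 12.2 and 12.5 FPKM in WT against 13.6, 14.6 and 13.3 FPKM in Hspa9 cKO. The groups overlapped for both genes. The log2 difference of Yme1l1 was 0.08 (SE 0.08, limma, adjusted p = 0.592), and that of Afg3l2 was 0.03 with a standard error of 0.12 (adjusted p = 0.896). The sign of both differences turned under other settings (-0.01 for Yme1l1 with the length trend removed, -0.03 for Afg3l2 after rescaling by trimmed means), so neither has a direction here.

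Oma1 (ENSMUSG00000035069, chr4:103313812-103371868, plus strand) encodes a metallopeptidase of the inner membrane that is activated by stress and cleaves OPA1 and DELE1. It was at 7.37, 6.73 and 7.86 FPKM in WT against 10.3, 8.58 and 9.87 FPKM in Hspa9 cKO. All Hspa9 cKO libraries were above all WT libraries, with means of 9.60 ± 0.915 and 7.32 ± 0.568 FPKM (SD, n = 3), and the log2 difference of 0.35 with a standard error of 0.11 was not called (limma, adjusted p = 0.0861). The ratio of Yme1l1 to Oma1 was 2.12, 2.48 and 1.92 in WT and 1.68, 1.80 and 1.77 in Hspa9 cKO, again without overlap (2.18 ± 0.284 against 1.75 ± 0.0627, SD, n = 3; exact permutation p = 0.1, adjusted 0.1).

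The fourth ratio set the main chaperonin gene against the main matrix protease gene. Hspd1 to Lonp1 was 4.77, 5.15 and 4.84 in WT and 4.07, 3.38 and 3.71 in Hspa9 cKO, so Hspd1 was lower relative to Lonp1 in each Hspa9 cKO library (4.92 ± 0.199 against 3.72 ± 0.344, SD, n = 3; exact permutation p = 0.1, adjusted 0.1). The ratio of Afg3l2 to Spg7 could not be formed.

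**Figure D2:**
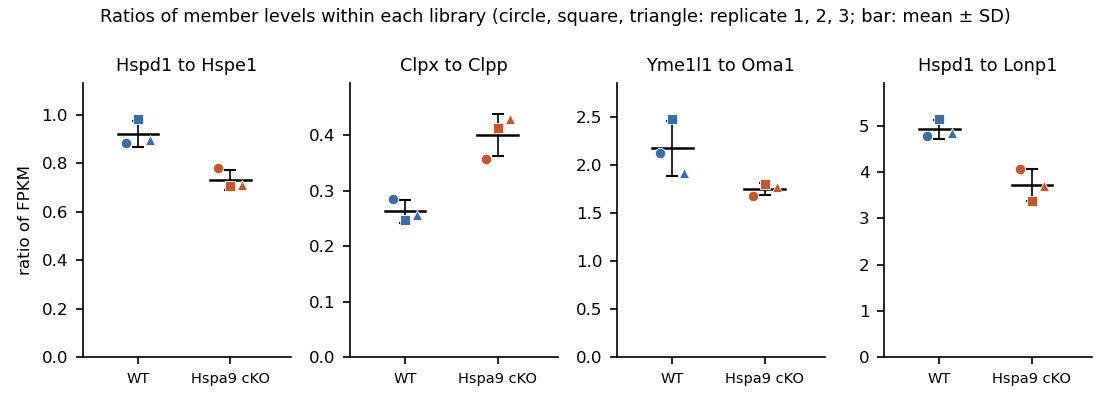
Ratios of FPKM between pairs of the measured genes within each library (vertical axes from 0), with the mean and SD of 3 libraries per group. The groups do not overlap for any of the 4 ratios: Clpx to Clpp is higher in Hspa9 cKO (0.401 against 0.263), and the other 3 are lower.

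FPKM is scaled to transcript length, so levels may be set side by side between genes. In both groups the order was Hspe1, Hspd1, Trap1, Lonp1, Clpp, Yme1l1, Afg3l2, Clpx and Oma1. Neighbours in this order had overlapping ranges for Yme1l1 and Afg3l2 in WT and for Clpx and Oma1 in both groups, so those pairs are not ordered. The chaperonin pair held 68.1, 69.3 and 68.4% of the summed FPKM of the 9 genes in WT and 63.6, 62.5 and 63.0% in Hspa9 cKO. The summed FPKM of the pair was 463.2 ± 8.05 in WT and 320.6 ± 10.9 in Hspa9 cKO (SD, n = 3), while that of the other 7 genes was 212.0 ± 9.84 and 188.0 ± 2.50. Both sums had groups that did not overlap (exact permutation p = 0.1 each).

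Transcript end sums come from the same transcript estimates as the start sums, equal or close to them in value, and are no independent evidence. Summed end events existed for 8 of the genes, 7 were tested and 3 were called lower, against 14.3% of 6983 genes called in either direction, 6.2% lower and 8.06% higher. They were again Hspd1 (log2 change -0.68, limma, adjusted p = 0.00273), Hspe1 (-0.38, adjusted p = 0.0111) and Lonp1 (-0.30, adjusted p = 0.0287). Trap1 had no end event, and the ends of Oma1 were listed in WT replicate 1 (0.107 FPKM) and Hspa9 cKO replicate 2 (0.311 FPKM) alone. Without Hspa9 cKO replicate 2 or 3, 1 gene was called on ends.

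The deposited tables also list which transcript structures carry the signal. Of 38 events of these genes, 30 were tested and 6 were called lower and 0 higher (limma), against 4.21% of 57237 events called in either direction, 1.76% lower and 2.45% higher. At an unadjusted p under 0.05, 18 of the 30 passed, beside 20.9% of all tested events. The 6 were the principal start and end of Hspd1, the start and end of Hspe1, and a pair of Lonp1 events that describe the same spliced transcript. Events of 1 transcript share its estimate and are not independent. No call was left without WT replicate 1, Hspa9 cKO replicate 2 or Hspa9 cKO replicate 3, with 15, 17 and 13 events still at an unadjusted p under 0.05, and 2 were left without each other library.

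In Lonp1 the transcript that splices intron 7 fell, while the one that retains it was not called. The event that splices intron 7 (chr17:56619393-56619985, 593 nucleotides, between coding exons 7 and 8) was at 39.6, 43.8 and 41.2 FPKM in WT against 28.9, 30.1 and 29.2 FPKM in Hspa9 cKO. It fell by 0.48 on the log2 scale, (SE 0.07, limma, adjusted p = 0.0284). The event that retains this intron was at 6.61, 0 and 4.33 FPKM in WT against 6.98, 8.07 and 6.34 FPKM in Hspa9 cKO and was not called (log2 difference 1.24, standard error 0.77, adjusted p = 0.429); the 0 is an event not listed in WT replicate 2 and may be a failed estimate. The share of Lonp1 transcripts that retained intron 7 was 14.3, 0 and 9.49% in WT and 19.5, 21.1 and 17.9% in Hspa9 cKO. The groups did not overlap, but with 5 shares examined, all chosen after the data were seen, the exact permutation p of 0.1 became 0.25. The spliced form of Lonp1 thus fell by more than the gene's total, which fell by 0.30 on the log2 scale; the difference between the 2 was not tested apart from this share.

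Hspd1 starts from its principal first exon and, at a low level, from a first exon further upstream (chr1:55087989-55088243) that lies across the shared promoter. The upstream start was at 14.7, 14.9 and 15.7 FPKM in WT against 9.21, 6.31 and 4.80 FPKM in Hspa9 cKO (log2 difference -1.09, standard error 0.22, limma, adjusted p = 0.0582). The principal start was at 205.6, 209.5 and 204.5 FPKM in WT against 136.6, 122.5 and 126.9 FPKM in Hspa9 cKO (log2 change -0.68, standard error 0.07, limma, adjusted p = 0.0107). The principal start therefore carried most of the fall in FPKM. The upstream start's share was 6.67, 6.63 and 7.12% in WT and 6.32, 4.90 and 3.64% in Hspa9 cKO, without overlap (exact permutation p = 0.1, 0.25 after adjustment over the 5 shares). This first exon overlaps that of Hspe1 on the other strand.

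Exon 6 of Clpx (chr9:65312098-65312139, plus strand) is a coding exon of 42 nucleotides, a multiple of 3, that the tables list as both included and skipped. It is shown because its skipping set 1 library apart. The exon is in capitals, with 10 bases of the neighbouring exons on each side in lower case, from the GENCODE M21 transcript.

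Clpx: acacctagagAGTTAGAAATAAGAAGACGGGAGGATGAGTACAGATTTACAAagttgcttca

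The exon was skipped in 20.5, 35.2 and 12.6% of Clpx transcripts in WT and in 8.74, 11.3 and 71.3% in Hspa9 cKO. Hspa9 cKO replicate 3 stood far above every other library, and the groups overlapped (exact permutation p = 1). The total level of Clpx in that library, 11.8 FPKM, was close to those of the other Hspa9 cKO libraries. In Oma1, exon 6 (chr4:103328838-103328966) was skipped in 19.2, 12.5 and 0% of transcripts in WT and in 26.0, 14.7 and 12.0% in Hspa9 cKO (exact permutation p = 0.5, adjusted 0.833). Skipping of Oma1 exon 3 (chr4:103321640-103321868) was listed in replicate 1 of each group alone, at 19.2% in WT and 9.27% in Hspa9 cKO.

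**Figure D3:**
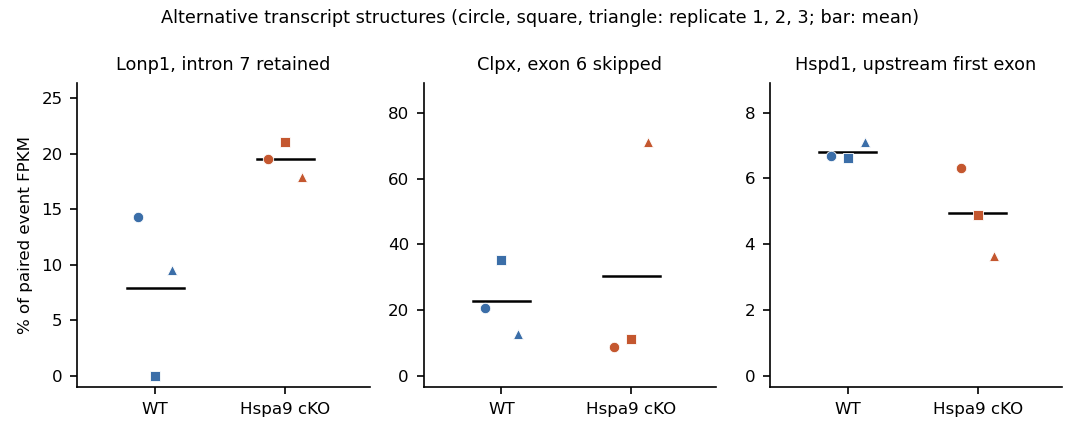
Percentage of each gene's paired event FPKM that retains Lonp1 intron 7, skips Clpx exon 6 or starts at the upstream first exon of Hspd1, by library, with the group mean as a bar. Retention in Lonp1 is 17.9 to 21.1% in Hspa9 cKO and at most 14.3% in WT, 1 Hspa9 cKO library skips Clpx exon 6 in 71.3% of transcripts, and the Hspd1 share is lower in all 3 Hspa9 cKO libraries.

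The wider machinery around these genes gave few calls. Of 44 genes in 4 lists of matrix folding and proteolysis, 41 were tested, 3 were called lower and 0 higher (limma), with 8 lower and 5 higher at an unadjusted p under 0.05. Their median log2 difference was -0.09, and the groups did not overlap for 11 genes on the lower and 7 on the higher side. Over all tested genes 13.3% were called (5.44% lower, 7.9% higher) and 38.7% had groups that did not overlap (15.7% lower, 22.9% higher). At an unadjusted p under 0.05 in limma, 12.2% were lower and 18.5% higher. Taken in either direction, the lists held no larger share of calls, and their share without overlap was near that of all genes. By direction, the lists held more genes on the lower side, while all tested genes held more on the higher side. This lean was not tested. The 3 calls came 1 each from 3 of the lists. These calls were sensitive to the libraries: 0 of the 41 were called without any 1 of the Hspa9 cKO libraries, with 10, 9 and 7 genes still at an unadjusted p under 0.05 without replicates 1, 2 and 3, and 1 was called without WT replicate 1 or 3.

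Among 10 tested partners of the matrix HSP70 and other matrix chaperones, Grpel1, the nucleotide exchange factor of HSPA9, was the 1 gene called lower. It was at 17.6, 18.0 and 18.2 FPKM in WT against 14.2, 13.6 and 13.3 FPKM in Hspa9 cKO, with no overlap. It fell by 0.37 on the log2 scale, (SE 0.07, limma, adjusted p = 0.0246), a call lost without any single library (adjusted p from 0.0619 without WT replicate 2 to 0.0881 without Hspa9 cKO replicate 3). The median of the list was -0.08. Dnaja3, an HSP40 partner of HSPA9, was at 14.3 ± 1.03 FPKM in WT and 17.1 ± 0.809 in Hspa9 cKO, and Grpel2, the second exchange factor, at 6.23 ± 0.269 and 6.28 ± 0.634 (SD, n = 3); neither was called, and both were named after their values were seen.

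Of 13 tested processing peptidases and other mitochondrial proteases, 0 were called in limma, with 2 lower and 2 higher at an unadjusted p under 0.05 and a median of -0.10. The most abundant, the subunits of the matrix processing peptidase that removes targeting sequences, were Pmpca, at 34.1 ± 1.09 FPKM in WT and 29.3 ± 1.30 in Hspa9 cKO (limma, adjusted p = 0.101), and Pmpcb, at 31.1 ± 1.60 and 28.2 ± 1.06 (adjusted p = 0.267; SD, n = 3). Both had groups that did not overlap.

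Of 5 scaffolds and partners of the AAA proteases, Phb2 fell. Prohibitin 2 forms the ring-shaped membrane scaffold that binds the m-AAA protease. Phb2 was at 104.6, 112.6 and 114.8 FPKM in WT against 69.0, 82.9 and 83.2 FPKM in Hspa9 cKO, a log2 change of -0.50 (SE 0.10, limma, adjusted p = 0.0251). The call was lost without any single library (adjusted p from 0.0552 without Hspa9 cKO replicate 1 to 0.0710 without WT replicate 3). Its ring partner Phb was at 83.9, 40.9 and 83.4 FPKM in WT, where replicate 2 stood apart, and at 63.2, 60.9 and 60.8 FPKM in Hspa9 cKO.

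Of 13 known substrates of these proteases, 1 was called lower and 0 higher, with 3 lower at an unadjusted p under 0.05 in limma and a median of -0.04. Gcsh, the lipoyl-carrying H protein of the glycine cleavage system, was at 37.5, 31.4 and 33.4 FPKM in WT against 22.9, 23.7 and 24.1 FPKM in Hspa9 cKO. It fell by 0.51 on the log2 scale, (SE 0.09, limma, adjusted p = 0.0175), a call lost without Hspa9 cKO replicate 1, 2 or 3 (adjusted p = 0.0660, 0.0617 and 0.0615). Transcripts of the OMA1 substrates showed no call: Opa1, the inner membrane fusion GTPase, was at 7.98 ± 0.564 FPKM in WT and 8.24 ± 0.160 in Hspa9 cKO, and Dele1, the stress relay to the cytosol, at 12.2 ± 2.60 and 12.0 ± 3.60 (SD, n = 3).

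Among 9 tested transcription factors tied to mitochondrial or heat shock responses, 2 rose and 0 fell (limma), and the median was -0.08. Over all tested genes, 7.9% were called higher and 5.44% lower. Atf5, a factor linked to the mitochondrial unfolded protein response in mammals, was at 4.81, 5.39 and 5.48 FPKM in WT against 46.1, 53.1 and 49.8 FPKM in Hspa9 cKO. This was a log2 change of 3.02 (SE 0.09, limma, adjusted p = 0.000235), and every Hspa9 cKO library was far above every WT library. Ddit3, which encodes CHOP, was at 4.65, 4.41 and 4.82 FPKM in WT against 7.28, 8.24 and 9.56 FPKM in Hspa9 cKO, a log2 change of 0.73 (SE 0.12, limma, adjusted p = 0.0156). The Ddit3 call was lost without WT replicate 1 (adjusted p = 0.0538) and without Hspa9 cKO replicate 2 or 3 (0.0591 and 0.0544). Of the chaperonin and protease genes above, none of the 9 measured was called higher beside these factors. Their groups did not overlap for 5 genes on the lower side and for 2 on the higher side, beside 15.7% and 22.9% of all tested genes. The 2 on the higher side were Clpx and Oma1, with log2 differences of 0.28 and 0.35, which were not called. Hsf1, the heat shock factor, was at 28.2 ± 6.59 FPKM in WT and 26.2 ± 1.78 in Hspa9 cKO (SD, n = 3), and Atf4 at 133.5, 60.0 and 60.9 FPKM in WT and 56.5, 56.9 and 54.6 FPKM in Hspa9 cKO, where WT replicate 1 stood apart; neither was called.

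Most of the listed chaperones outside mitochondria fell as well. Of 14 tested cytosolic and ER chaperones, 9 were called lower and 0 higher in limma (10 lower and 0 higher at an unadjusted p under 0.05), with a median log2 difference of -0.48 and 11 genes with groups that did not overlap, all lower. Over all tested genes, 5.44% were called lower and 12.2% were lower at an unadjusted p under 0.05 in limma. The groups did not overlap on the lower side for 15.7%. The HSP90 genes Hsp90aa1 and Hsp90ab1 fell by 0.69 and 0.51 on the log2 scale (limma, adjusted p = 0.00344 and 0.00510). Dnajb1, an HSP40 that is a classic target of HSF1, was at 49.1, 42.4 and 52.0 FPKM in WT against 22.8, 25.3 and 25.0 FPKM in Hspa9 cKO, a log2 change of -0.94 (SE 0.10) (adjusted p = 0.00499). Stip1, the HSP70 to HSP90 adaptor, fell by 0.46 (adjusted p = 0.00723). The 5 genes not called were Hspa4, Dnaja1, Hsp90b1, Cct2 and Chordc1, with overlapping groups for Hspa4, Dnaja1 and Chordc1. The count of 9 became 5 without Hspa9 cKO replicate 3. With end events taken before starts, 9 genes of the list were tested and 4 were called.

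**Figure D4:**
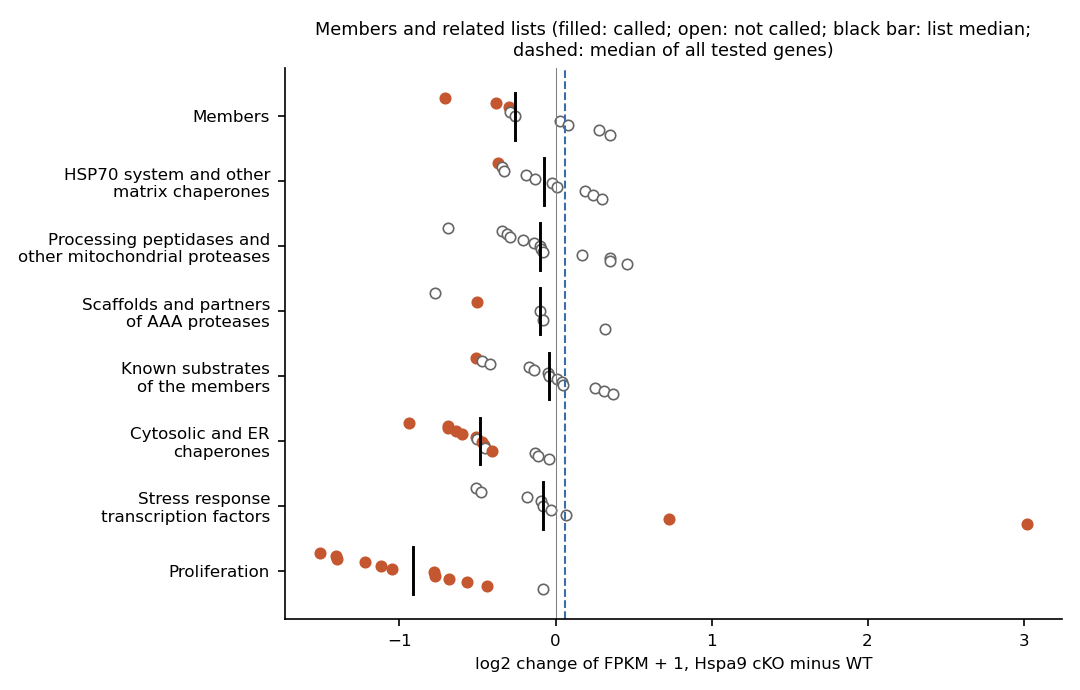
Log2 difference of FPKM + 1, Hspa9 cKO minus WT (horizontal axis), for each tested gene of the chaperonin and protease group and of 7 related lists (rows), with the list median as a black bar and the median of all tested genes, 0.06, as a dashed line. The median of the chaperonin and protease group is -0.26, and those of the other mitochondrial lists lie near 0. The medians of the cytosolic and ER chaperones and of the proliferation genes are -0.48 and -0.91.

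Proliferation genes were lower in the same libraries. Of 12 such genes, 11 were called lower and 0 higher (limma; the same 11 and 0 counts at an unadjusted p under 0.05), with a median log2 difference of -0.91. Over all tested genes, 5.44% were called lower and 12.2% were lower at an unadjusted p under 0.05 in limma. The exception on the list was Tyms (log2 difference -0.08, limma, adjusted p = 0.852). Top2a, the topoisomerase of dividing cells, fell by 1.05 on the log2 scale (adjusted p = 0.00119), Ccnb1 (cyclin B1) by 1.51 (0.00204), Ube2c, of the anaphase-promoting complex pathway, by 1.41 (0.000708) and Plk1, a mitotic kinase, by 1.22 (0.00114). The DN3 markers were all present, and 7 of 12 were called higher and 0 lower, with a median of 0.59. Over all tested genes, 7.9% were called higher. Il2ra (CD25), at 152.8 ± 6.76 FPKM in WT and 376.8 ± 9.01 in Hspa9 cKO (SD, n = 3), Dtx1, Cd3g and Cd3d were among the 7, with log2 changes of 1.30, 1.45, 0.54 and 0.64 (limma, adjusted p = 0.000628, 0.00115, 0.00487 and 0.00723). The groups overlapped for 2 markers that were not called, Lck (log2 difference -0.44, SE 0.42) and Rag1 (0.40, SE 0.27). The part of these differences in the levels of the chaperonin and protease genes was not tested.

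Over the whole series, 1260 of 9440 tested genes were called, 746 higher and 514 lower, and rescaling by trimmed means of log ratios turned this split to 576 higher and 686 lower. Read depth is unknown, since the tables hold no counts; the summed start FPKM ranged from 248014.5 to 272918.3 per library. The Hspa9 level itself was 105.4, 121.2 and 121.7 FPKM in WT and 117.2, 123.5 and 109.7 FPKM in Hspa9 cKO, but the event that includes exons 2 to 4 was at 104.6 to 108.8 FPKM in WT and 16.8 to 25.2 FPKM in Hspa9 cKO. The event that skips these exons was also listed in WT, with 12.3 FPKM for replicate 2 and 17.0 for replicate 3 and none for replicate 1; its range in Hspa9 cKO was 68.9 to 89.4 FPKM. Markers of other cells were listed in part. Of 6 B cell genes 1 was listed (Cd79b), of 8 myeloid and dendritic genes 4 (3 below 1 FPKM), of 8 epithelial and stromal genes 3, and of 6 NK, innate lymphoid and gamma delta genes 3. Another 5 listed genes were erythroid. Of these sums, 4 did not overlap between the groups: the erythroid sum was 63.1 to 76.6 FPKM in WT and 37.6 to 46.1 in Hspa9 cKO, the NK, innate lymphoid and gamma delta sum 32.8 to 40.3 and 62.8 to 73.1, led by Nkg7, the epithelial and stromal sum 48.0 to 51.9 and 62.5 to 69.6, led by Epcam, and the B cell sum 9.75 to 12.6 and 15.3 to 18.3. The myeloid and dendritic sum overlapped, at 8.92 to 15.0 and 13.5 to 15.5. The surface markers that the gate removes summed to 14.8 to 15.2 FPKM in WT and 9.01 to 12.5 in Hspa9 cKO. Their part in the results was not tested.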

How the data were processed

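The 6 RNA sequencing libraries of DN3 thymocytes, 3 WT and 3 Hspa9 cKO, were grouped by their titles. The build mm10 and the trimming tool cutadapt 1.9.1 are named per the submitters' processing notes; the sources used here do not give the aligner, assembler, event caller or annotation. Per the labels' protocols, messenger RNA was enriched by poly(A) selection or ribosomal RNA removal, and which was used is not stated. The authors deposited FPKM values, per the file headers, for single features of transcript structure of 20 types (events). Unlisted events were set to 0.

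Start and end events were assigned to genes by exon edge in GENCODE M21; of 27390 start events, 23401 fitted a single gene's edge (96.0% of the start FPKM), 2071 were placed by shared edge or overlap and 1918 were left out. Levels were summed start FPKM (11995 genes), or end FPKM where no start was listed (578 genes), with repeated event numbers dropped. They were tested with limma 3.58.1 (R 4.3.3) on log2(FPKM + 1), trended and robust, two-sided, on genes that reached 1 FPKM in 3 or more libraries, with Benjamini-Hochberg adjustment over all genes and a threshold of 0.05. Log2 changes on this scale understate those of low genes. Ratios, shares and sums were tested with exact two-sided permutation tests, which cannot go below p = 0.1 with 3 against 3 libraries. The fit was tested on simulated data.

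The genes and lists were chosen with earlier results of these data known. From each list the named genes were the called ones, up to 4 by adjusted p, or else the 2 most abundant; other list genes were named after their values were seen. The shares of alternative structures and a pseudocount of 1 in ratios were added after seeing the data. Protein sequences were not used here, and 1 marker gene is not reported here.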

Additional observations from a re-analysis of the deposited data

How the results depend on the processing

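With the replicate number as a block, 186 genes were called (123 higher, 63 lower) in place of 1260, and 208 with the block and the length trend removed. The chaperonin and protease genes called went from 3 to 1 under both, the genes of the 4 mitochondrial lists from 3 to 0 under both (8 and 10 at an unadjusted p under 0.05 in limma), gene ends from 3 to 1 and events from 6 to 0 (16 unadjusted) under the block. The cytosolic and ER chaperones called went from 9 to 2 under the block, where Hsp90ab1 and Stip1 were not called (limma, adjusted p = 0.0529 and 0.0618), and to 4 with the length trend removed too. Same-numbered libraries did not deviate together (r of -0.01, 0.00331 and -0.0574 across genes). A correlation across all genes cannot exclude pairing that affects some of them, so whether the numbers pair the samples is not known. Hspd1 kept its call under the block (limma, adjusted p = 0.0472), while Hspe1 and Lonp1 lost theirs (0.0788 and 0.125).

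Rescaling by trimmed means called 5 chaperonin and protease genes with a median of -0.33, in place of 3 and -0.26; with the length trend removed 5 list genes were called. Without trended and robust variances 2 events were called. Leaving out 1 library gave 394 to 807 genes, 1 to 2 of the chaperonin and protease genes, 0 to 2 list genes, 1 to 2 genes on ends and 0 to 2 events. Fewer libraries enter those fits. The split of calls was 576 higher and 686 lower after trimmed means, 599 and 646 after the median of ratios and 605 and 677 with the length trend removed, in place of 746 and 514.

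The sign turned for Yme1l1 (-0.01 with the length trend removed, with or without the block) and Afg3l2 (-0.03 after trimmed means, -0.02 after the median of ratios, -0.04 with the length trend removed, with or without the block, and -0.04 to 0.15 without 1 library). The other 7 genes and the 4 ratios kept their direction in every alternative run; Yme1l1 to Oma1 was not run on ends, where Oma1 is at 0 in 4 libraries. The causes were not tested.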
